A study of Homo sapiens with 24 samples.

Results

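A panel of 189 mostly cell cycle genes was counted in HCT116 cells after transfection of an siRNA against CARLo-5 and compared with HCT116 cells that received a control siRNA. HCT116 is a human line derived from colorectal cancer. The members are the 3 libraries labelled HCT116 siCARLo-5 and the 3 labelled HCT116 siCTRL, 6 of the 24 libraries of the series, with all 189 endogenous probes of the panel. Both groups were transfected at 50 nM siRNA with Lipofectamine RNAiMAX, and total RNA was taken with TRIZOL. The series holds 4 further siCARLo groups in HCT116 (siCARLo-1 v3, siCARLo-3, siCARLo-4 and siCARLo-7 v2, 3 libraries each at the same siRNA concentration), which served as a contrast that uses no control library. The study asked how cell cycle genes respond when long non-coding RNAs of the 8q24.21 cancer risk region are targeted.

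CARLo-5 is an alias of CCAT1 in RefSeq, a long non-coding RNA gene. It has no probe on the panel. Whether its level fell is therefore unknown for these libraries, and each value below shows what followed transfection of the siRNA. A single siRNA name per group means that effects of the target and of the siRNA sequence itself cannot be told apart. The libraries are labelled as repeats of a group, but no label says that they were separate cultures, so p-values measure the spread between these libraries, which may be technical. CDH1, which encodes the epithelial adhesion protein E-cadherin, had 131, 144 and 164 normalized counts in the control libraries and 183, 182 and 187 in the siCARLo-5 libraries, above background in all 6. TWIST1, a mesenchymal transcription factor, was not above background in any of the 6.

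The cell cycle is driven by cyclin-dependent kinases (CDKs). D-type cyclins with CDK4 or CDK6, then E-type cyclins with CDK2, inactivate the pocket proteins RB1, RBL1 and RBL2, which releases E2F transcription factors and with them many genes of DNA replication. Small inhibitor proteins such as CDKN1A (p21), which is induced by stress, hold the kinases back. The kinases ATR and CHEK1 watch over replication forks, the spindle assembly checkpoint watches over chromosome attachment, and the ubiquitin ligases SCF and APC/C remove regulators in order.

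Endogenous counts summed to between 89835 and 175266 in the 6 libraries, and 168 to 175 genes lay above background, which was set for each library at 2 SD over the mean of its 8 negative probes (8.94 to 16.1 counts). Of the 189 genes, 178 were above background in at least 3 of the 18 HCT116 libraries and were tested. Normalized counts below are counts divided by a library size scaled with TMM over the endogenous genes, so every fold change is relative to the bulk of the panel. Endogenous counts per count of the spiked positive controls were 10.8 ± 0.998 (SD, n = 3) in the control and 8.59 ± 0.317 (SD, n = 3) in siCARLo-5, a difference of -2.21 with no overlap (exact two-sided permutation test, p = 0.1, the smallest that 3 against 3 libraries can give). The ratio of positive control A to B, RNAs that no siRNA acts on, was 2.01 ± 0.155 in the control and 2.37 ± 0.0663 in siCARLo-5 (SD, n = 3 each), again without overlap (exact two-sided permutation test, p = 0.1). In the authors' scaled table the positive controls of the 2 groups were set to different sums, 8964 to 8967 and 16033 to 16034. What that difference carries and the siRNA cannot be told apart against siCTRL. In bulk RNA, fewer cells expressing a gene and less of its RNA per cell cannot be told apart either. Among the other HCT116 groups, replicate 3 of siCARLo-1 v3 stood apart from its own group (chi-square per degree of freedom 52.8 and 59.1 against its partners, beside 2.67 between those). It enters the scaling and the spread of every comparison, since all 18 HCT116 libraries share 1 fit. Only the comparison whose means include its group is given with and without it.

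After siCARLo-5 transfection the panel split in both directions. CDKN1A, SFN, RELA and the D-type cyclins CCND1 and CCND3 were higher, while genes of DNA damage signalling (BRCA1, CHEK1, MRE11A, ATR), of replication (POLE2, DBF4, CDC7, CDC6) and of chromosome attachment (SMC1A, BUB1B, MAD2L1) were lower. In all 12 libraries of the other 4 siCARLo groups, CDKN1A, SFN, RELA and CCND1 were also above every control library. CDC7, SMC1A and BUB1B were below every control library there as well. These differences from siCTRL are therefore not particular to siCARLo-5. For the other genes just named, those 12 libraries overlapped the control. Among genes described below, NACA was likewise above, and RBL1 and CDC27 below, every control library in those 12. Of the 178 tested genes 100 passed the test at an adjusted p under 0.05 (56.2%), 45 of them higher (25.3%) and 55 lower (30.9%) in siCARLo-5. The test was edgeR's quasi-likelihood F test with Benjamini-Hochberg adjustment over the 178 genes, as for every adjusted p below. At least 1.5-fold differences were found for 51 of the called genes, 21 higher and 30 lower, and at least 2-fold differences for 14 (7 without siCARLo-5 replicate 2). In 55 genes (30.9%) all 3 siCARLo-5 libraries lay above all 3 control libraries, in 65 (36.5%) below them, and in 58 the groups overlapped. Counts for a gene group are to be read against these shares. The median log2 fold change of all tested genes was 0.040.

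**Figure D1:**
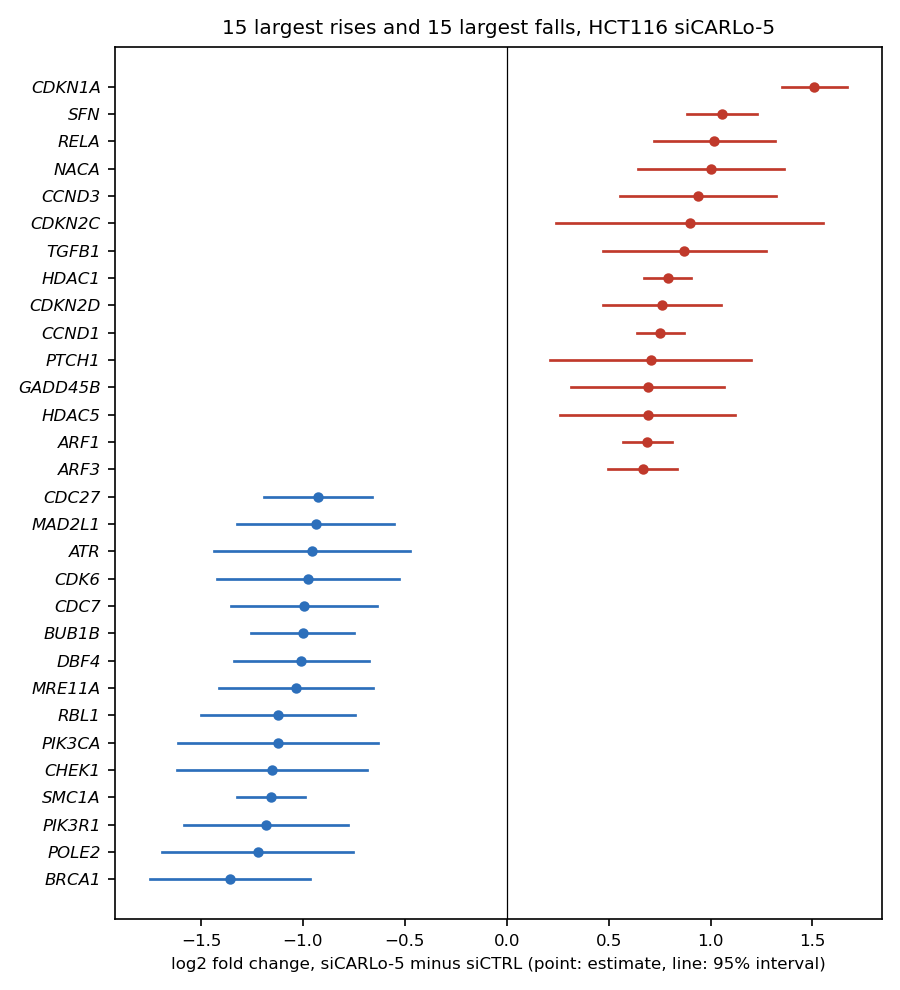
Log2 fold changes of siCARLo-5 over siCTRL for the 15 genes with the largest rise (red) and the 15 with the largest fall (blue) among called genes whose groups do not overlap. Points are edgeR estimates and lines their 95% intervals. CDKN2C, among the rises, was above background in none of the control libraries. CDKN1A stands above the other rises at 1.51, and the falls run from -0.93 for CDC27 to -1.36 for BRCA1.

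The direction of many smaller differences depended on the scaling. With the sum of the 6 positive controls as the scale, the median of all tested genes was -0.36 and 90 genes were called, 8 higher and 82 lower. With 7 reference genes of metabolism, cytoskeleton and transcription as the scale the median was -0.067 and the split 28 higher and 59 lower. The authors' scaled values, tested with limma as deposited, turned the split to 87 higher and 17 lower with a median of 0.46. At 1.5-fold or more the split of 21 and 30 became 4 and 69 with the positive controls, 10 and 36 with the reference genes and 66 and 11 with the authors' scaled values. The difference of the positive control sums in those values alone amounts to 0.84 on the log2 scale. Called in the same direction under TMM, DESeq2 size factors and these 3 scalings were 25 genes. The 8 higher ones were CDKN1A, SFN, RELA, NACA, CCND1, CCND3, TGFB1 and HDAC1. The 17 lower ones were BRCA1, CHEK1, ATR, MRE11A, POLE2, DBF4, CDC7, PRIM1, SMC1A, BUB1B, CDC23, CDC27, CDK6, RBL1, PIK3CA, PIK3R1 and XPO1. The 5 scalings are not independent checks. The authors' scaled values rest on the same positive controls, set to other sums, and TMM and DESeq2 size factors gave similar medians (0.040 and 0.066). Agreement over them therefore favours genes with large differences. Where a gene outside these 25 is said below to rise or fall, the word holds for the TMM scale, relative to the bulk of the panel.

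**Figure D2:**
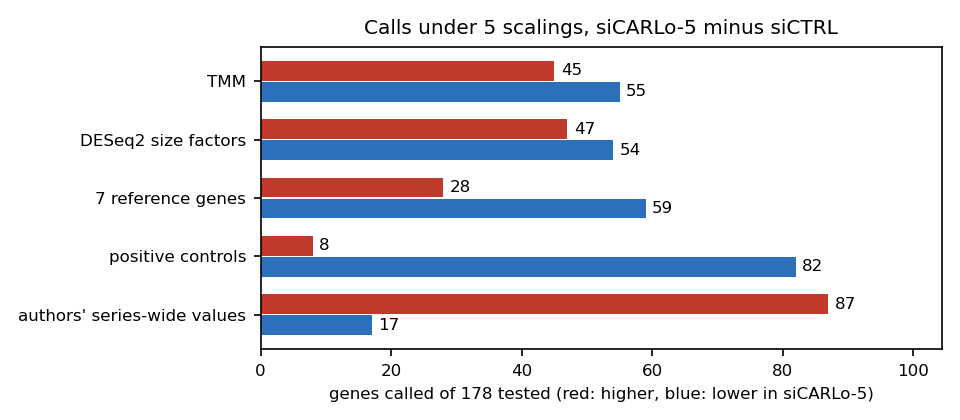
Number of genes called higher (red) and lower (blue) in siCARLo-5 than in siCTRL, of 178 tested, under 5 ways of scaling the libraries. The split moves from 45 higher and 55 lower with TMM to 8 and 82 with the positive controls and to 87 and 17 with the authors' scaled values.

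Genes of DNA damage signalling and break repair were lower as a group. Of 8 tested members 7 fell, none rose and CHEK2 was not called, with a median log2 fold change of -0.85 beside 0.040 over all tested genes. BRCA1, a scaffold of repair by homologous recombination, had 136, 162 and 155 normalized counts in the control libraries and 68.6, 55.0 and 54.4 in the siCARLo-5 libraries. The groups lay far apart, with 151 ± 13.7 and 59.3 ± 8.07 (SD, n = 3) as group means, a log2 fold change of -1.36 ± 0.19, adjusted p = 1.0e-05. CHEK1, the checkpoint kinase that ATR activates at stalled forks, had 523, 554 and 744 in the control and 309, 228 and 281 in siCARLo-5. That was 2.22-fold lower (-1.15 ± 0.22, adjusted p = 2.8e-04), and replicate 2 of siCARLo-5 was the lowest library. ATR itself, the kinase that senses uncovered DNA at forks, had 179, 172 and 165 in the control and 85.6, 47.9 and 131 in siCARLo-5. Its siCARLo-5 libraries differed among themselves more than those of the other repair genes, and the log2 fold change of -0.96 ± 0.23, adjusted p = 0.0017 became -0.65 without replicate 2 and -1.40 without replicate 3, each still called.

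MRE11A and RAD50 encode subunits of the complex that binds broken DNA ends. MRE11A had 129.9, 129.9 and 166 normalized counts in the control and 70.6, 54.2 and 81.2 in siCARLo-5, a log2 fold change of -1.03 ± 0.18, adjusted p = 1.2e-04. RAD50 had 102, 126 and 116 in the control and 74.6, 51.9 and 78.9 in siCARLo-5, again without overlap (-0.74 ± 0.17, adjusted p = 0.0013). Smaller differences were found for CHEK2 and PRKDC. CHEK2, a kinase that acts below ATM, had a log2 fold change of -0.21 ± 0.095, adjusted p = 0.074. PRKDC, a kinase of end joining, was called by a narrow margin (-0.21, adjusted p = 0.0497) with overlapping groups, and lost the call without any 1 of the 3 control libraries or without siCARLo-5 replicate 2 or 3. ATM itself was not tested, since its 5 to 7 counts per library were not above background. With the positive controls or the reference genes as the scale all 8 members fell, and with the authors' scaled values 4 fell and none rose.

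**Figure D3:**
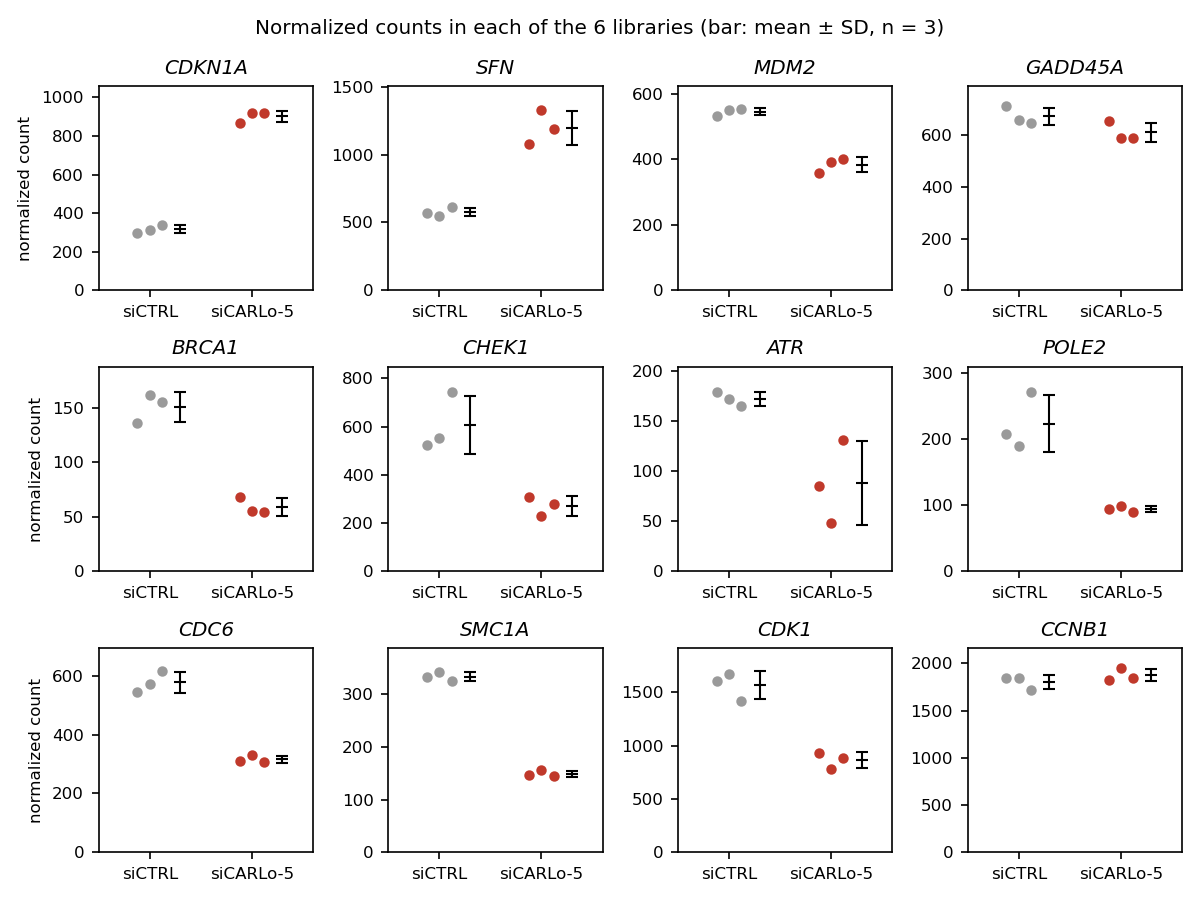
Normalized counts of 12 genes in each of the 3 siCTRL (grey) and 3 siCARLo-5 (red) libraries, with the mean and SD of each group beside the points (n = 3) and axes that start at 0. The siCARLo-5 libraries lie above the control in CDKN1A and SFN and below it in MDM2, BRCA1, CHEK1, ATR, POLE2, CDC6, SMC1A and CDK1, while GADD45A and CCNB1 were not called.

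Replication genes fell unevenly. Among 19 tested genes of origin licensing, firing and replication, 11 fell, MCM2 rose and 7 were not called, and the list median was -0.47. POLE2, the small subunit of the leading-strand polymerase epsilon, had 208, 189 and 271 normalized counts in the control and 94.5, 99.0 and 90.1 in siCARLo-5. That is 2.33-fold lower (-1.22 ± 0.22, adjusted p = 1.7e-04), whereas POLE, the catalytic subunit of the same enzyme, was not called (-0.22 ± 0.16, adjusted p = 0.26). DBF4 and CDC7 together form the kinase that fires licensed origins. DBF4 had 321, 322 and 285 in the control and 157, 119 and 187 in siCARLo-5 (-1.01 ± 0.16, adjusted p = 3.8e-05), and CDC7 had 212, 204 and 184 and 110.4, 77.0 and 115 (-0.99 ± 0.17, adjusted p = 1.0e-04). Both subunits lay below the control in every library, by a similar size. CDC6, which loads the MCM helicase at origins, had 544, 571 and 615 in the control and 310.4, 330.0 and 305 in siCARLo-5, a log2 fold change of -0.87 ± 0.12, adjusted p = 9.8e-06. CDC45, which joins the helicase at firing, fell by a similar size (-0.84 ± 0.14, adjusted p = 1.0e-04).

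The 6 subunits of the MCM helicase did not move together. MCM6 had 693, 699 and 706 normalized counts in the control and 443, 421 and 451 in siCARLo-5 (-0.67 ± 0.087, adjusted p = 5.5e-06), and MCM2 had 159, 175 and 162 and 213, 251 and 213 (0.45 ± 0.13, adjusted p = 0.0061). MCM6 thus fell and MCM2 rose on the TMM scale, and neither pair of groups overlapped. The other 4 were not called, with log2 fold changes of 0.11 for MCM3, -0.23 for MCM4, -0.26 for MCM5 and -0.21 for MCM7. Of the 6 subunits of the origin recognition complex, which marks origins, 5 fell, from -0.33 for ORC2 (with a turned sign in the authors' scaled values) to -0.63 for ORC6, and ORC5 was not called (-0.31 ± 0.14, adjusted p = 0.074). PCNA, the sliding clamp, was not called either (-0.17 ± 0.21, adjusted p = 0.51), and RPA3 was not tested. The rise of MCM2 is not called with the reference genes or the positive controls as the scale. Under those scalings 11 and 16 members of the list fell and none rose, and with the authors' scaled values 3 fell and 2 rose.

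Primer synthesis, chosen for a look after its values were seen, was on no list. PRIM1, the catalytic subunit of primase, had 485, 499 and 424 normalized counts in the control and 257, 257 and 268 in siCARLo-5 (-0.85 ± 0.097, adjusted p = 1.5e-06). Its partners PRIM2 (-0.46 ± 0.10, adjusted p = 0.0012) and POLA2 (-0.61 ± 0.11, adjusted p = 2.0e-04) fell as well. RPA1, the large subunit of the protein that covers unwound DNA, was higher on the TMM scale (0.31 ± 0.073, adjusted p = 0.0016), with a turned sign under the positive control scale.

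Many replication genes carry E2F-type sites close to the transcription start, so the 250 bases before the RefSeq start (GRCh38.p14) were searched on both strands for TTTGGCGC, TTTCGCGC, TTTCCCGC and TTTGGCGG. At least 1 of these was found in 9 of the 49 called-lower genes with a promoter entry (18.4%), in 12 of 67 tested but uncalled genes (17.9%), in 1 of 38 called-higher genes (2.63%) and in 794 of all 27305 promoters of the table (2.91%). The share among lower genes is thus that of uncalled genes of the panel. The 4 genes with the largest falls, BRCA1, POLE2, PIK3R1 and SMC1A, have none in this window. Only the start of the first RefSeq entry of each gene was searched. The shares and these absences therefore hold for that start and not for any other start of a gene, BRCA1 included. The 3 windows below were chosen after the search, because RBL1, MCM6 and CDC6 fell and hold a match. They are printed in the direction of the gene, with matches in capitals, from chr20:37095998-37096247 (minus strand) for RBL1, chr2:135876444-135876693 (minus strand) for MCM6 and chr17:40287629-40287878 (plus strand) for CDC6.
RBL1: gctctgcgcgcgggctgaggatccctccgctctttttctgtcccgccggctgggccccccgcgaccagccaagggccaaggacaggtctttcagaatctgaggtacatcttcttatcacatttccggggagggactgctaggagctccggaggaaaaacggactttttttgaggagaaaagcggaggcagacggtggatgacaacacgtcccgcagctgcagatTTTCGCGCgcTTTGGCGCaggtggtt
MCM6: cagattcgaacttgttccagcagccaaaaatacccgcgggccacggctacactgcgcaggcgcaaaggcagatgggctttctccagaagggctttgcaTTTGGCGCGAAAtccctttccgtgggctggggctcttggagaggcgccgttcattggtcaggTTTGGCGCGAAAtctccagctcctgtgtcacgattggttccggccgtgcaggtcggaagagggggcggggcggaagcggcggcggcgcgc
CDC6: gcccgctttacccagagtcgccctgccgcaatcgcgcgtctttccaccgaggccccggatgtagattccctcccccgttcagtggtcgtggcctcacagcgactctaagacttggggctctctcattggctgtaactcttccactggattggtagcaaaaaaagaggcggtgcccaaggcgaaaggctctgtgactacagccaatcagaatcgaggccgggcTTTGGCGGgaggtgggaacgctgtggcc
The RBL1 window holds matches that begin 26 and 16 bases before the start, in MCM6 each of the 2 stretches in capitals is an overlapping pair of matches, TTTGGCGC on the printed strand and TTTCGCGC on the other, and in CDC6 the match begins 28 bases before the start. A match is a description of the letters, not a test of E2F binding. The CHR motif TTTGAA, known from promoters of mitotic genes, was found in 2 of the 49 called-lower genes (4.08%), in 6 of 67 uncalled genes (8.96%), in 5 of 38 called-higher genes (13.2%) and in 3704 of all promoters (13.6%).

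SMC1A and most spindle checkpoint genes on the panel fell. SMC1A, a subunit of the cohesin ring that holds sister chromatids together, had 331, 341 and 324 normalized counts in the control and 146, 156 and 145 in siCARLo-5. The libraries of each group agree closely, and the gene was 2.23-fold lower (-1.16 ± 0.079, adjusted p = 1.9e-09). Of 6 tested spindle assembly checkpoint genes 4 fell, MAD1L1 was called higher and MAD2L2 was not called, with a list median of -0.44. BUB1B, which encodes the checkpoint protein BubR1, had 541, 555 and 499 in the control and 283, 266 and 251 in siCARLo-5 (-1.001 ± 0.12, adjusted p = 2.7e-06). MAD2L1, its partner in holding back the APC/C, had 927, 950.4 and 1211 and 609.9, 474 and 527 (-0.94 ± 0.18, adjusted p = 3.2e-04). BUB1, the kinase that recruits both to kinetochores, fell by 0.58 on the log2 scale, and BUB3 by 0.29. MAD1L1 (0.41 ± 0.14, adjusted p = 0.016) lost its call without siCARLo-5 replicate 3, and BUB3 turned to 0.14 with the authors' scaled values.

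CDK1, the kinase of mitotic entry, had 1599.7, 1671 and 1419 normalized counts in the control and 927, 784 and 880.3 in siCARLo-5. It was 1.81-fold lower (-0.86 ± 0.12, adjusted p = 1.6e-05), without overlap. CCNA2, cyclin A, had 1098, 1126 and 1136 and 819, 735 and 743 (-0.55 ± 0.13, adjusted p = 0.002), while CCNB1, cyclin B, had 1849.8, 1849 and 1716 and 1829, 1955 and 1850.0, and was not called (0.057 ± 0.12, adjusted p = 0.7). CDC25C, a phosphatase that activates CDK1, rose on the TMM scale from 55.7, 58.8 and 40.9 to 66.7, 95.9 and 80.4 (0.63 ± 0.17, adjusted p = 0.004). The kinase PKMYT1, which inhibits CDK1, was called higher (0.38 ± 0.15, adjusted p = 0.046), but the call was lost without any 1 of the 3 control libraries, without siCARLo-5 replicate 2 or 3 and with replicate number as a block (adjusted p = 0.062), and its sign turned with the positive controls as the scale (-0.020). CCNB2, the other cyclin B, named after its values were seen, was called higher (0.25 ± 0.098, adjusted p = 0.039), but not without control replicate 2 or any 1 of the siCARLo-5 libraries, and its sign turned with the positive controls as the scale. In all, 3 of 9 tested mitotic entry genes were called higher, 2 lower and 4 in neither direction, with 1 or 2 called higher when 1 library was left out, and WEE1 and CCNA1 were not above background. With the positive controls as the scale 4 of the 9 fell and none rose.

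Among 12 tested subunits and activators of the APC/C, the ligase that ends mitosis, 3 rose, 3 fell and 6 were not called. CDC27 had 1009.9, 950.4 and 987 normalized counts in the control and 598, 401 and 555 in siCARLo-5 (-0.93 ± 0.13, adjusted p = 9.2e-06), and CDC23, its neighbour in the same arm of the complex, had 406, 394 and 356 and 228, 211 and 214 (-0.83 ± 0.086, adjusted p = 4.0e-07). These 2 are the members that fell under all 5 scalings. ANAPC2, the cullin subunit of the catalytic core, rose on the TMM scale (0.59 ± 0.13, adjusted p = 9.0e-04), as did the activator FZR1 (0.51 ± 0.098, adjusted p = 2.9e-04), whereas the other activator, CDC20, was not called (0.17 ± 0.18, adjusted p = 0.45). The securin PTTG1 was called higher at 0.29 ± 0.087, adjusted p = 0.0074, with PTTG2 uncalled (0.13 ± 0.11, adjusted p = 0.36), but their transcripts are nearly identical and which of them each probe counts is uncertain. The sign of PTTG1 turned with the positive controls as the scale (-0.11).

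**Figure D4:**
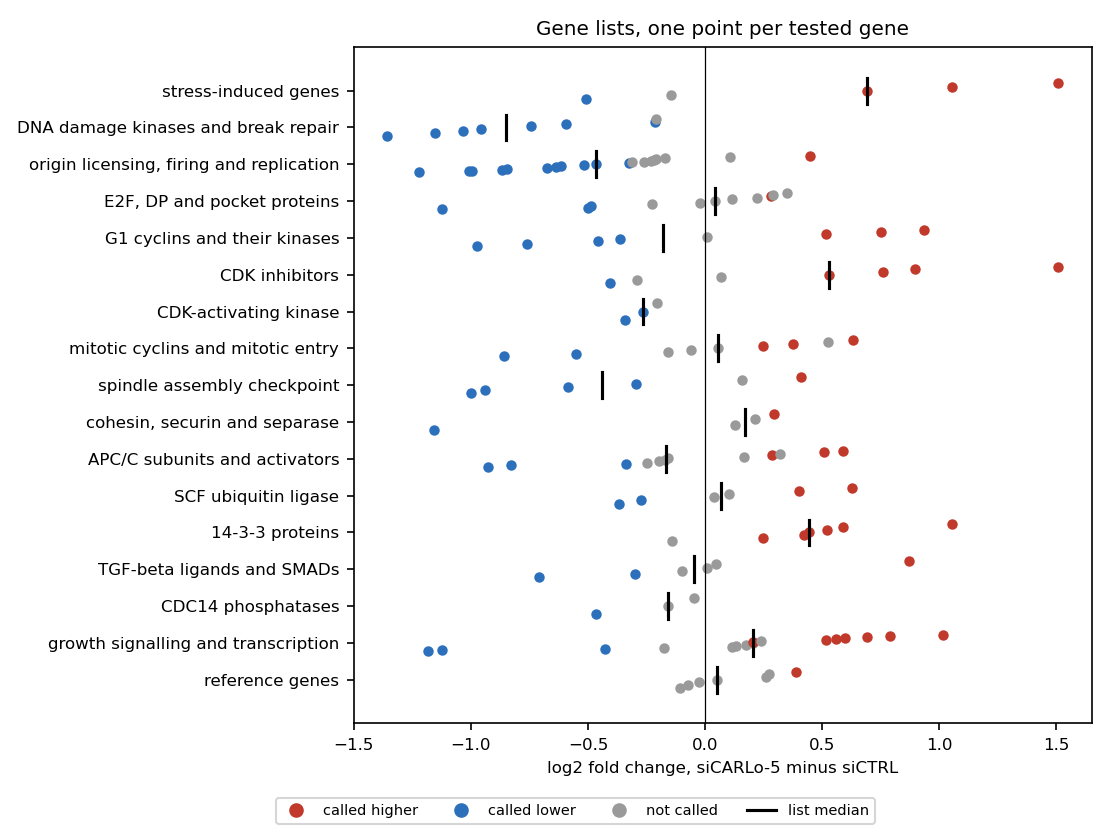
Log2 fold changes of siCARLo-5 over siCTRL for each tested gene of 17 lists, coloured by whether edgeR called it higher (red), lower (blue) or not (grey) at an adjusted p under 0.05. Vertical bars are list medians, which run from -0.85 for the DNA damage genes to 0.69 for the stress-induced genes. SFN and CDKN1A stand in 2 lists each.

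The stress-induced genes on the panel moved in different directions, with 3 of 5 tested members called higher and 1 lower. CDKN1A, the inhibitor p21, had 299, 312 and 341 normalized counts in the control and 867, 918 and 918 in siCARLo-5. The libraries of each group lay close together, and the gene was 2.85-fold higher, with a log2 fold change of 1.51 ± 0.076, adjusted p = 3.0e-11 and a 95% interval of 1.35 to 1.67. SFN, 14-3-3 sigma, which keeps CDK1 in the cytoplasm, had 567, 550.1 and 614 and 1076, 1329 and 1186 (1.06 ± 0.083, adjusted p = 8.5e-09). GADD45B, a stress sensor, had 49.8, 44.6 and 36.8 in the control and 60.7, 88.8 and 64.1 in siCARLo-5 (0.69 ± 0.18, adjusted p = 0.003). Against these 3 rises, MDM2, a ubiquitin ligase, fell from 532, 551 and 552 to 357, 393 and 399 (-0.51 ± 0.094, adjusted p = 2.0e-04). GADD45A, the other stress sensor tested, had 710.0, 659 and 648 and 654, 589 and 586 and was not called (-0.14 ± 0.076, adjusted p = 0.12), and GADD45G was not above background. With the positive controls as the scale CDKN1A and SFN remained called higher, with MDM2 and GADD45A called lower. GADD45A was called lower with the reference genes as the scale as well (-0.25, adjusted p = 0.021). MDM2 was not called with the authors' scaled values (-0.078).

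Of 7 tested CDK inhibitors 4 were called higher (1 of them, CDKN2C, against a control below background), CDKN1B lower and 2 in neither direction. CDKN2D (p19), an inhibitor of CDK4 and CDK6, had 79.1, 63.6 and 76.3 normalized counts in the control and 125, 132 and 113 in siCARLo-5 (0.76 ± 0.14, adjusted p = 1.6e-04), without overlap. CDKN2D was not called with the positive controls as the scale (0.36, adjusted p = 0.1), unlike CDKN1A, which is described above and is also among those called higher. The calls of CDKN2C, CDKN2A and CDKN1B were less firm. CDKN2C had 6.84, 5.69 and 8.18 normalized counts in the control and 12.9, 11.8 and 13.4 in siCARLo-5. It was above background in none of the control libraries and in 2 of the siCARLo-5 libraries, so no fold is given, and it lost its call without control replicate 1 or 2 or siCARLo-5 replicate 3. CDKN2A (0.53 ± 0.21, adjusted p = 0.043) had overlapping groups and lost its call without control replicate 2 or siCARLo-5 replicate 1 or 3. CDKN1B (p27), which restrains CDK2, had 78.1, 68.3 and 76.3 in the control and 51.7, 55.8 and 59.6 in siCARLo-5, with a log2 fold change of -0.40 ± 0.15, adjusted p = 0.026. Its call was lost without control replicate 1 or 3 or siCARLo-5 replicate 1 or 2, and its sign turned with the authors' scaled values (0.020).

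The 14-3-3 proteins, adaptors that bind phosphorylated partners such as CDC25 phosphatases, were higher in 6 of 7 tested members, with a list median of 0.44. Apart from SFN these were YWHAB (0.59), YWHAQ (0.52), YWHAE (0.44), YWHAG (0.42) and YWHAZ (0.25, with a turned sign under the positive control scale), and YWHAH was not called (-0.14). YWHAB had 105, 104 and 98.2 normalized counts in the control and 141, 164 and 159 in siCARLo-5 (0.59 ± 0.11, adjusted p = 1.7e-04). These rises were relative to the bulk of the panel: with the positive controls as the scale SFN was called higher, 1 member was lower and the list median was 0.032, while with the reference genes 5 were higher.

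Genes of the G1 phase changed in both directions. CCND1, cyclin D1, had 1175, 1231 and 1261 normalized counts in the control and 1964, 2092 and 2123 in siCARLo-5 (0.75 ± 0.054, adjusted p = 2.7e-09). CCND3, cyclin D3, rose from 29.3, 37.9 and 39.5 to 67.7, 69.1 and 66.3 (0.94 ± 0.18, adjusted p = 2.9e-04), and CCND2 was not above background. Their kinase CDK6 went the other way, with 122, 116 and 102 in the control and 40.8, 44.0 and 85.6 in siCARLo-5 (-0.98 ± 0.21, adjusted p = 8.3e-04). CDK4, the other partner of the D cyclins, was called higher (0.52 ± 0.18, adjusted p = 0.021), but not without control replicate 1 or 2 or siCARLo-5 replicate 2 or 3. The E-type cyclins, which act with CDK2 at the start of replication, fell. CCNE2 had 157, 135 and 136 and 85.6, 69.1 and 98.3 (-0.76 ± 0.17, adjusted p = 0.0013), CCNE1 had a log2 fold change of -0.46 ± 0.13, adjusted p = 0.0053, and CDK2 one of -0.36 ± 0.10, adjusted p = 0.0052, whose sign turned with the authors' scaled values. CDC25A, the phosphatase that activates CDK2, was not called (0.0062 ± 0.14, adjusted p = 0.96).

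Among 11 tested E2F, DP and pocket protein genes 1 rose, 3 fell and 7 were not called. The 3 that fell were all the pocket proteins. RBL1 (p107) had 141, 125 and 123 normalized counts in the control and 67.7, 55.0 and 57.3 in siCARLo-5, a log2 fold change of -1.12 ± 0.18, adjusted p = 5.6e-05. RB1 fell from 299.8, 278 and 309 to 216, 177 and 234 (-0.50 ± 0.13, adjusted p = 0.0035), and RBL2 (p130) was called at -0.49 ± 0.16, adjusted p = 0.015, although not without control replicate 1 or siCARLo-5 replicate 1. E2F1, the activator most tied to S phase entry, had 129, 134 and 105 and 115, 144 and 121, and was not called (0.042 ± 0.15, adjusted p = 0.81). E2F4, a repressor that works with the pocket proteins, was the member called higher (0.28 ± 0.095, adjusted p = 0.016), though its sign turned with the positive controls as the scale. E2F3 narrowly missed the threshold (0.29 ± 0.13, adjusted p = 0.058) and passed it without siCARLo-5 replicate 2, with replicate number as a block, and under 5 other settings (DESeq2, its size factors in edgeR, the authors' scaled values, the filter on all libraries of the groups and a fit to these groups alone). In the CDK-activating kinase, CDK7 (-0.27 ± 0.077, adjusted p = 0.0066) and CCNH (-0.34 ± 0.11, adjusted p = 0.013) were called lower and MNAT1 was not called, except without control replicate 3 and with the positive controls or the reference genes as the scale. The signs of CDK7 and CCNH turned with the authors' scaled values (0.17 and 0.086), and the call of CCNH was lost without control replicate 3 or siCARLo-5 replicate 2.

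In the list of growth signalling and transcription 7 of 16 tested genes rose, 3 fell and 6 were not called. Both PI3-kinase subunits on the panel were lower. PIK3R1, the regulatory subunit, had 162, 136 and 140.4 normalized counts in the control and 68.6, 47.1 and 77.5 in siCARLo-5 (-1.18 ± 0.19, adjusted p = 5.7e-05). PIK3CA, the catalytic subunit, had 161, 149.9 and 211 and 79.6, 46.4 and 110.2 (-1.12 ± 0.23, adjusted p = 5.3e-04). RELA, a subunit of NF-kappaB, rose from 81.1, 88.2 and 69.5 to 149, 193 and 146 (1.02 ± 0.14, adjusted p = 1.0e-05), while its partner NFKB1 and the inhibitor NFKBIA were not called (0.20 and 0.17). The histone deacetylase HDAC1 had 1264, 1252 and 1272 in the control and 2090.3, 2239 and 2216 in siCARLo-5 (0.79 ± 0.055, adjusted p = 1.9e-09). Its close relative HDAC2 was called lower (-0.43 ± 0.071, adjusted p = 8.4e-05; the sign turned with the authors' scaled values), and HDAC5, of another class, higher (0.69 ± 0.20, adjusted p = 0.0074).

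MYC lies in the same chromosomal region as CARLo-5. It had 1590.0, 1622 and 1468 normalized counts in the control and 1855, 1840.2 and 1710.0 in siCARLo-5, a log2 fold change of 0.21 ± 0.056, adjusted p = 0.0044 without overlap. The difference is small, and its sign turned with the positive controls as the scale (-0.20). With the reference genes as the scale MYC was not called (0.0996, adjusted p = 0.39).

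TGFB1, a growth-inhibiting ligand, had 96.7, 83.5 and 87.3 normalized counts in the control and 170.1, 161 and 159 in siCARLo-5 (0.87 ± 0.19, adjusted p = 8.3e-04). TGFB2 and TGFB3 were not called (-0.098 and 0.048). Of the signal transducers, SMAD2 was lower (-0.71 ± 0.18, adjusted p = 0.0026), SMAD3 was not called (0.0063 ± 0.11, adjusted p = 0.96), and SMAD4 was called lower (-0.30 ± 0.095, adjusted p = 0.012) except without control replicate 3. PTCH1, the receptor of hedgehog ligands, was called higher (0.71 ± 0.23, adjusted p = 0.015), but not without control replicate 2 or siCARLo-5 replicate 3, and the ligand SHH was not above background. In the SCF ligase the scaffold CUL1 (-0.37 ± 0.091, adjusted p = 0.0021) and the F-box protein SKP2 (-0.27 ± 0.089, adjusted p = 0.014) were called lower and the ring protein RBX1 (0.40 ± 0.060, adjusted p = 2.7e-05) and the conjugating enzyme CDC34 (0.63 ± 0.11, adjusted p = 1.2e-04) higher. Without control replicate 3 the call of SKP2 was lost, and the signs of CUL1, SKP2 and SMAD4 turned with the authors' scaled values, that of RBX1 with the positive controls as the scale. Of the CDC14 phosphatases CDC14B was called lower (-0.47 ± 0.14, adjusted p = 0.0074), except without control replicate 1, and CDC14A and CDC14C were not called.

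Outside the lists 43 genes were tested, of which 10 were called higher and 8 lower. The probe named NACA, a nascent chain chaperone subunit, had 36.1, 33.2 and 32.7 normalized counts in the control and 58.7, 71.5 and 73.7 in siCARLo-5 (1.002 ± 0.17, adjusted p = 1.0e-04), whereas the probe named NACAP1 was called lower (-0.30 ± 0.098, adjusted p = 0.013), except without control replicate 1 or siCARLo-5 replicate 2. Their transcripts are nearly identical, so which of them each probe counts is uncertain. ARF1 (0.69 ± 0.057, adjusted p = 1.7e-08) and ARF3 (0.67 ± 0.079, adjusted p = 2.6e-06), small GTPases of Golgi traffic, were both higher on the TMM scale. XPO1, the nuclear export receptor, singled out after its values were seen, was lower (-0.89 ± 0.11, adjusted p = 2.9e-06). Of the 7 reference genes TUBB was called higher (0.39 ± 0.079, adjusted p = 4.5e-04), with a turned sign under the positive control scale (-0.021), and 6 were not called, from -0.11 for POLR1B to 0.27 for GAPDH.

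Within the siCARLo-5 group the libraries were not alike in the size of the differences. Among the 55 called-lower genes replicate 2 was the lowest library in 29, replicate 1 in 14 and replicate 3 in 12. Among the 45 called-higher genes replicate 1 was the lowest in 29 and replicates 2 and 3 in 8 each. These counts are to be read against all 178 tested genes. There replicate 1 was the lowest in 79, replicate 2 in 55 and replicate 3 in 44. Without replicate 2, 92 genes were called against siCTRL, among them 6 of the 8 DNA damage genes as lower, 11 of the 19 replication genes as lower and 1 as higher, and 6 of the 7 14-3-3 genes as higher.

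To see where siCARLo-5 differed from other siRNAs, it was set against siCARLo-7 v2, whose positive controls had the same sum of 16033 in the authors' scaled table, and against the mean of all 4 other siCARLo groups. Neither comparison uses a control library. The A to B ratio of the positive controls was 2.90 ± 0.0131 (SD, n = 3) in siCARLo-7 v2, above the 2.37 ± 0.0663 of siCARLo-5 without overlap, so the groups share the sum but not this ratio. Apart from siCARLo-7 v2, the groups behind the mean had positive control sums of 12210 to 12212 in the authors' scaled table, not 16033. For those groups, as for siCTRL, what the difference in sum carries and the siRNA cannot be told apart. This limit holds for the mean of the 4 groups and for positions among their 12 libraries. Against siCARLo-7 v2, 95 of 178 genes were called (53.4%), 40 higher (22.5%) and 55 lower (30.9%). Against the mean of the 4 groups 96 were called (53.9%), 43 higher (24.2%) and 53 lower (29.8%), of which 32 differed at least 1.5-fold. Without replicate 3 of siCARLo-1 v3 the count was 103, 43 higher and 60 lower. In siCARLo-5, 9 genes lay above all 12 libraries of the other 4 groups and 13 below all of them.

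Of the 8 DNA damage genes 7 were called lower and 1 higher than in siCARLo-7 v2, and 6 lower and 1 higher than the mean of the 4 groups. Of the 19 replication genes 12 were lower and none higher in the former comparison, and 10 lower and 2 higher in the latter, and of the 6 spindle checkpoint genes 3 were lower in each. Without siCARLo-5 replicate 2 the replication genes called were 8 lower against siCARLo-7 v2 and 9 lower and none higher against the mean of the 4 groups, and without siCARLo-7 v2 replicate 1 they were 7 lower against that group. CDC7 (-0.33 and -0.11), BUB1 (-0.17 and -0.17) and ORC1 (-0.19 and 0.060) were called in neither comparison, and CDC45 only against siCARLo-7 v2 (-0.64 and -0.23). Outside or within these lists, others called against siCTRL were also called in neither. Among them were CDC23, CCNA2, MCM2, MAD1L1, ANAPC2, CDC34, GADD45B, YWHAB and CDK7. POLE2 had 94.5, 99.0 and 90.1 normalized counts in siCARLo-5, beside 253, 269.8 and 329 in siCARLo-7 v2 and 149.8 to 329 (median 212) over the 12 libraries of the 4 groups. It was below all 12, with log2 differences of -1.59 ± 0.22, adjusted p = 1.2e-05 against siCARLo-7 v2 and -1.21 ± 0.18, adjusted p = 3.5e-05 against the mean of the 4 groups. CHEK1, with 532, 492 and 590.4 in siCARLo-7 v2 and 365 to 846 (median 578) over the 12 libraries, was also below all of them in siCARLo-5 (-0.98 ± 0.22, adjusted p = 0.0012 and -1.11 ± 0.18, adjusted p = 8.3e-05). CDC6 showed the same order, with 394 to 743 (median 615) over the 12 libraries (-1.09 ± 0.12, adjusted p = 8.7e-07 and -0.87 ± 0.098, adjusted p = 1.1e-06). MDM2 ranged over 485 to 1079 (median 800.0) in the 12 libraries and was below all of them in siCARLo-5 (-1.03 ± 0.093, adjusted p = 9.4e-08 and -0.96 ± 0.077, adjusted p = 2.3e-08). BRCA1 was below all 12 as well, at -0.71 ± 0.16, adjusted p = 0.0012 against the mean of the 4 groups. ATR was lower by a like amount in both comparisons (-0.96 ± 0.23, adjusted p = 0.0019 and -0.87 ± 0.19, adjusted p = 9.2e-04), although its siCARLo-5 libraries overlapped the 12.

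**Figure D5:**
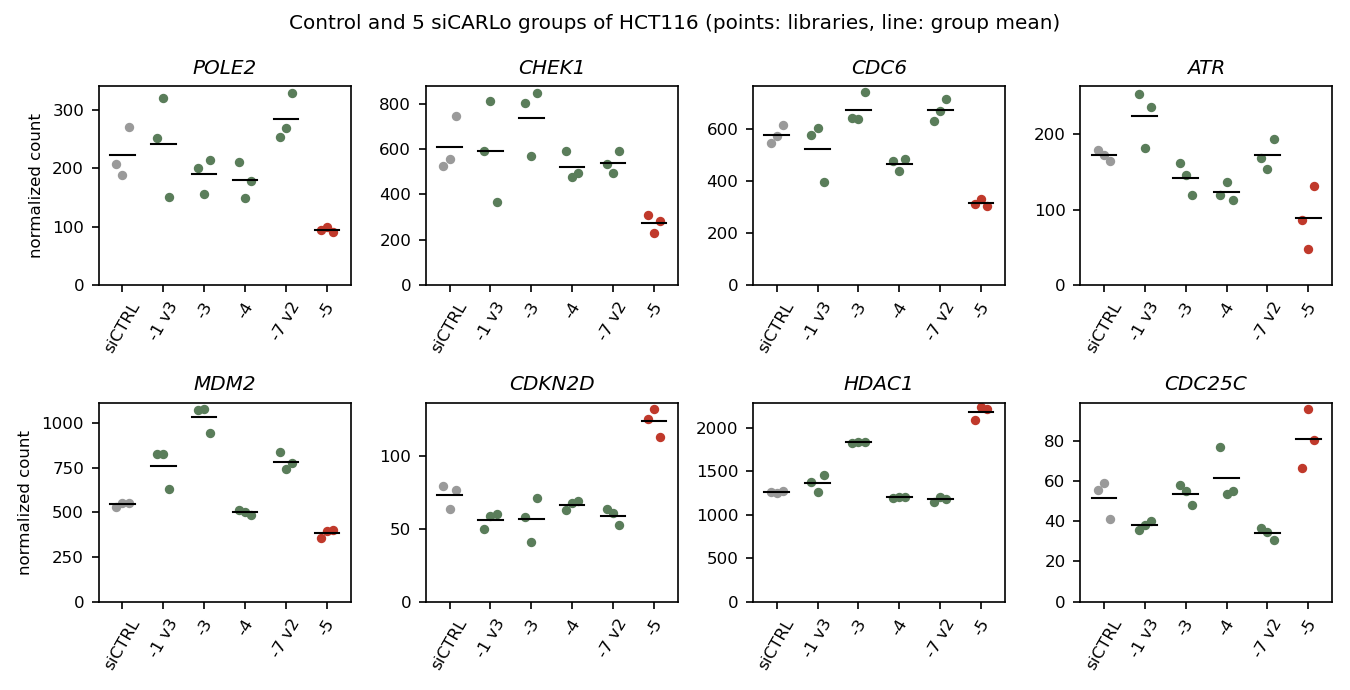
Normalized counts of 8 genes in the 3 libraries of each HCT116 group, siCTRL in grey, 4 siCARLo groups in green and siCARLo-5 in red, with a line at each group mean and axes that start at 0. POLE2, CHEK1, CDC6 and MDM2 are lowest in siCARLo-5, and CDKN2D and HDAC1 highest.

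Higher in siCARLo-5 than in all 12 libraries were CDKN2D, HDAC1, E2F4 and PTTG1, among others. CDKN2D ranged over 40.9 to 71.3 (median 60.2) in the 12 libraries, against 125, 132 and 113 in siCARLo-5 (1.06 ± 0.14, adjusted p = 1.0e-05 and 1.07 ± 0.11, adjusted p = 2.1e-07). HDAC1 ranged over 1153 to 1839.9 (median 1233), against 2090.3, 2239 and 2216 (0.89 ± 0.055, adjusted p = 7.9e-10 and 0.67 ± 0.041, adjusted p = 7.3e-10). CDC25C, at 36.9, 34.5 and 30.5 in siCARLo-7 v2, was higher in both comparisons (1.26 ± 0.18, adjusted p = 2.2e-05 and 0.85 ± 0.13, adjusted p = 3.5e-05). DTX4, a Notch pathway ligase, was called higher than in siCARLo-7 v2 (adjusted p = 0.009), where it was above background in 0 of 3 libraries, so no fold is given. TGFB3 and CDKN2C were called higher than the mean of the 4 groups and CDC14C lower, but CDC14C and TGFB3 lost the call without siCARLo-5 replicate 1 or 2, and CDKN2C without replicate 3.

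CDKN1A and SFN, the largest rises against siCTRL, did not set siCARLo-5 apart in this way. CDKN1A ranged over 454 to 1861 (median 1141) in the 12 libraries, so siCARLo-5, at 867, 918 and 918, lay within their range. It was higher than siCARLo-7 v2 (0.94 ± 0.073, adjusted p = 1.3e-08) and slightly lower than the mean of the 4 groups (-0.16 ± 0.056, adjusted p = 0.023), a call that was lost without siCARLo-5 replicate 1 or 2. SFN, with 2416, 2650.4 and 2534 in siCARLo-7 v2, was lower than there (-1.08 ± 0.079, adjusted p = 7.4e-09) and not called against the mean of the 4 groups (-0.065 ± 0.063, adjusted p = 0.41). Nor were the D-type cyclins particular to siCARLo-5. CCND1 ranged over 1889 to 2930 (median 2534) in the 12 libraries. At 1964, 2092 and 2123, siCARLo-5 lay within that range and below its median. CCND3 was called in neither comparison (adjusted p = 0.13 and 0.075). SMC1A and PIK3R1 were not called against siCARLo-7 v2 (-0.14 and 0.26) but were lower than the mean of the 4 groups (-0.56 and -0.62), PIK3R1 not without siCARLo-5 replicate 2. MYC was not called in either comparison (0.011 ± 0.056, adjusted p = 0.87 and 0.086 ± 0.044, adjusted p = 0.11). GADD45A, uncalled against siCTRL, was lower in both (-0.81 ± 0.075, adjusted p = 1.1e-07 and -0.79 ± 0.062, adjusted p = 2.2e-08).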

How the data were processed

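Molecules were counted on the nCounter platform with a cell cycle gene set, per the labels. The group tables hold raw molecule counts as deposited, with 6 positive and 8 negative control probes, and 0 columns belonged to no library. The series-wide values are a score, not counts: the authors scaled each library so that its positive controls reach a set sum, as the equal sums within groups show. They served as an alternative. The image processing, the runs and the genome build were not given in the sources used here, and siRNA sequences and PC3 libraries were not used here.

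Counts of the 18 HCT116 libraries entered 1 fit with edgeR's quasi-likelihood F test, TMM scaling and Benjamini-Hochberg adjustment over the 178 genes tested. The common dispersion of 0.0081 is a coefficient of variation of 9.02% between libraries of a group. Values after ± are standard errors beside log2 fold changes and SDs beside means. On simulated counts the test recovered all of 20 genes changed 2-fold and 19 of 20 changed 1.5-fold, with 4 of 138 unchanged genes called. The simulation gave all genes the same dispersion and as many rises as falls. It therefore checks that the code runs as meant and gives no error rate for these data, where the split depends on the scale. Control replicates 1 and 2 differed little (chi-square per degree of freedom 1.21, p = 0.033, beside 3.03 and 3.00 for the other control pairs), but more than counting noise, and were kept as 2 libraries, with their sum as an alternative. Their number and spread limit the precision, and molecule counts carry counting error besides.

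The members and gene lists were chosen with earlier results of these data known, and list counts are a description. Named were the 15 largest called rises and falls without overlap, 10 genes of prior interest (MYC, CDKN1A, CDKN1B, CCND1, CCNE1, E2F1, CDK1, MDM2, CHEK1 and BRCA1), up to 5 members of each of 17 lists by size of change and their untested members, and the 8 largest called rises and falls of the other comparisons. Further members of these lists, genes on no list and printed promoters were named after their values were seen, to complete complexes and pathways. Gene names are those of the files, and results for some genes are not reported here. Of the accessions 178 matched the RefSeq gene table, 2 of them under another symbol (MRE11 for MRE11A and NACA4P for NACAP1), and 11 did not. Promoters are RefSeq's first entry per gene. Fits ran in edgeR 4.0.16, DESeq2 1.42.0 and limma 3.58.1 under R 4.3.3. Other steps used Python 3.11.15 with pandas 2.3.3, SciPy 1.17.1, NumPy 2.4.6 and matplotlib 3.10.9.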

Additional observations from a re-analysis of the deposited data

How the results depend on the processing

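The number of genes called against siCTRL was 100, and ranged from 87 (7 reference genes as the scale) to 107 (fit to the 6 libraries alone) over the settings that change the test, the filter or the scale. DESeq2 gave 98, limma on log2 values 100, limma after subtraction of the negative probes 96, no filter 99, a filter on all libraries of the groups 102, and control replicates 1 and 2 as 1 library 93. Leaving out 1 library gave 89 to 98. Against siCARLo-7 v2, leaving out 1 library gave 79 to 88, and against the mean of the 4 groups 76 to 84 for a siCARLo-5 library and 103 for siCARLo-1 v3 replicate 3, which was chosen after seeing the data. The split into higher and lower genes was less stable than the count. With the positive controls as the scale it was 8 and 82 against siCTRL, 12 and 93 against siCARLo-7 v2 and 19 and 58 against the mean of the 4 groups. With the authors' scaled values it was 87 and 17, 12 and 90 and 50 and 25. With the reference genes it was 28 and 59, 29 and 57 and 29 and 51. Against siCARLo-7 v2 the lean to lower genes was absent in some settings. The split was 43 and 43 with DESeq2 size factors and 47 and 45 in a fit to the groups compared alone. Without siCARLo-7 v2 replicate 1 it was 42 and 38. Every other setting kept more lower than higher genes in that comparison.

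Among the 85 genes named by the rule for this comparison, called genes whose sign turned against siCTRL with the authors' scaled values were BUB3 (0.14), CCNH (0.086), CDC16 (0.089), CDK7 (0.17), CDKN1B (0.0197), CUL1 (0.063), SKP2 (0.16) and SMAD4 (0.13). With the positive controls as the scale they were MYC (-0.20), PKMYT1 (-0.0203), PTTG1 (-0.11), RBX1 (-0.00361) and TUBB (-0.021). No other setting turned the sign of a called gene among them, while genes near 0 that were not called, such as E2F1 and TGFB3, changed sign when 1 library was left out. Outside the rule, the called genes ORC2, CDK2, HDAC2, NACAP1 and PRKDC turned with the authors' scaled values, and E2F4, RPA1, YWHAZ and CCNB2 with the positive controls.

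The difference in endogenous counts per positive control count ranged from -2.67 to -1.68, and that in the positive control A to B ratio from 0.321 to 0.457, when 1 library was left out, where an exact permutation test cannot give a p below 0.2. With replicate number as a block (replicate block) 99 genes were called against siCTRL, 44 higher and 55 lower, 90 against siCARLo-7 v2 and 94 against the mean of the 4 groups. With 3 libraries per group the data cannot tell whether the numbers pair the libraries. Deviations of same-numbered siCARLo-5 and siCTRL libraries correlated at 0.036, 0.066 and -0.039. Against siCARLo-7 v2 these values were 0.091, 0.27 and 0.19, and every siCARLo-5 library correlated best with its own number, which is a hint from the data and not the design.

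Knockdown, RNA input and the independence of libraries were not measured. The depth leaves 11 genes unread, with 0 to 12 counts in each of the 6 libraries.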
